A study of Mus musculus with 12 samples.

Results

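The GABA-A receptor subunit genes Gabra2, Gabra3, Gabra4, Gabra5, Gabrb1, Gabrb2 and Gabrd were followed in the prefrontal cortex of mice after repeated cocaine. The 7 genes were found by symbol among 39221 genes that the tables named alone at a locus, and they took up 9 of 41319 loci at 2 h, 11 of 42527 at 24 h and 9 of 41667 at 7 d. The choice used gene symbols, not a threshold on values. C57BL/6 mice (C57BL/6 J in the study's methods) of 10 weeks received 20 mg/kg cocaine per day, or saline, by intraperitoneal injection for 14 consecutive days, and both prefrontal cortices (the frontal association, prelimbic and orbital areas) were taken at one of 3 times from the last dose: 2 h, 24 h and 7 d. Each time point had its own saline group. The labels name no transgene or targeted allele. Each of the 6 groups had 2 RNA-seq libraries, and each library pooled 5 mice, which makes 12 libraries and 60 mice. The deposited tables hold 1 FPKM (fragments scaled by transcript length and by the fragments mapped) per group and locus, estimated by the authors over both libraries. A level is therefore given without SD or n, a difference between cocaine and saline has no replicate check here, and the read depth behind it is unknown.

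GABA-A receptors are pentameric chloride channels, most often alpha and beta subunits together with gamma or delta, and they carry most fast inhibition in the cortex. Receptors with the alpha2 or alpha3 subunit (Gabra2, Gabra3) sit largely at synapses. Receptors with alpha4, alpha5 or delta (Gabra4, Gabra5, Gabrd) sit largely outside them, where they respond to ambient GABA and give tonic inhibition. The beta subunits (Gabrb1, Gabrb2) form part of the GABA binding site and of the contacts with scaffold and trafficking proteins. In a piece of cortex the RNA comes from all of its cells, so fewer cells of a type and less RNA per cell cannot be told apart.

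The tissue had the markers of cortex. Slc17a7 and Camk2a led 10 markers of cortical excitatory neurons, whose summed level lay between 1428 and 1691 FPKM, and the 5 olfactory bulb markers summed to between 0.738 and 1.02 FPKM. At 2 h all 9 activity-induced genes were at least 1.2-fold higher after cocaine, as were 10.8% of all loci. The synaptic immediate early gene Arc was at 5.59 FPKM in saline and 77.8 FPKM in cocaine. The study had already reported Fos, Egr1, Nr4a1 and Dusp6 of this list as changed at all 3 times, so the list was not independent of these data. Markers of other cell types also differed between the groups. Of all loci, 56.1% were higher in cocaine at 2 h, 53.0% at 24 h and 47.6% at 7 d. At 2 h all 6 astrocyte markers (554 against 623 FPKM in sum) and all 6 vascular markers (72.7 against 80.5 FPKM) were higher in cocaine. The 6 astrocyte markers summed to 643 FPKM in saline and 577 FPKM in cocaine at 24 h, with all 6 lower, and to 532 and 637 FPKM at 7 d, with all 6 higher. The 6 oligodendrocyte markers were all lower at 24 h (803 against 669 FPKM in sum), as were 47.0% of all loci. At 2 h 5 of these markers were lower and 1 higher. The 11 interneuron markers summed to 1666 against 1499 FPKM at 7 d, with 8 lower and 3 higher, where 52.4% of all loci were lower. Most of that fall lay in Cck (801 and 722 FPKM), Sst (262 and 229 FPKM) and Npy (231 and 202 FPKM). Lhx6 (3.27 and 3.36 FPKM), Reln (13.2 and 13.6 FPKM) and Ndnf (2.21 and 2.61 FPKM) were the 3 higher. Ttr, a marker of choroid plexus, was at 1.90 and 0.461 FPKM at 2 h, 1.80 and 1.1 FPKM at 24 h and 0.284 and 6.54 FPKM at 7 d in saline and cocaine, while the 7 choroid plexus markers summed to between 3.51 and 9.73 FPKM. The list did not follow Ttr. At 2 h, where Ttr was lower in cocaine, Kcnj13 was at 1.54 FPKM in saline and 1.92 FPKM in cocaine. At 7 d, where Ttr was higher, Folr1 was at 0.668 and 0.290 FPKM and Kcnj13 at 2.04 and 2.16 FPKM. Markers other than Ttr and Kcnj13 stayed below 1 FPKM. The part of these cells in the subunit values was not tested.

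All 7 subunits were expressed in every group. FPKM is per length, so levels can be set between genes, but the 3 tables were made separately and a level set across time points also carries the difference between tables. Gabrb2 was listed at 2 loci, and its levels here are those of the locus on the annotated strand unless the sum is named. Counted so, Gabra3 was the highest of the 7 over the 6 groups, with a median of 55.1 FPKM (52.3 to 55.9). Gabrd followed with 47.8 FPKM (46.4 to 50.2). Gabra4 had a median of 34.3 FPKM (33.4 to 35.9), Gabrb2 of 30.2 FPKM (20.4 to 32.2), Gabra2 of 26.3 FPKM (25.9 to 29.1) and Gabra5 of 21.3 FPKM (20.2 to 22.1). Gabrb1 was the lowest, with 7.57 FPKM (6.49 to 8.44). Gabra3, Gabrd and Gabra4 did not overlap one another, whereas the range of Gabrb2 reached across all of Gabra2 and nearly all of Gabra5. Summed over both of its loci, Gabrb2 had a median of 52.5 FPKM (46.7 to 59.0), a range that takes in that of Gabra3 and overlaps that of Gabrd. Of 9 other subunit genes considered, Gabrg1 had a median of 6.56 FPKM and overlapped Gabrb1, and Gabrg3 lay below both at 3.29 FPKM. Gabrq, Gabrr1, Gabrr2, Gabrr3, Gabra6, Gabre and Gabrp were below 0.2 FPKM in every group, and Gabrp was listed at 0 throughout.

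**Figure D1:**
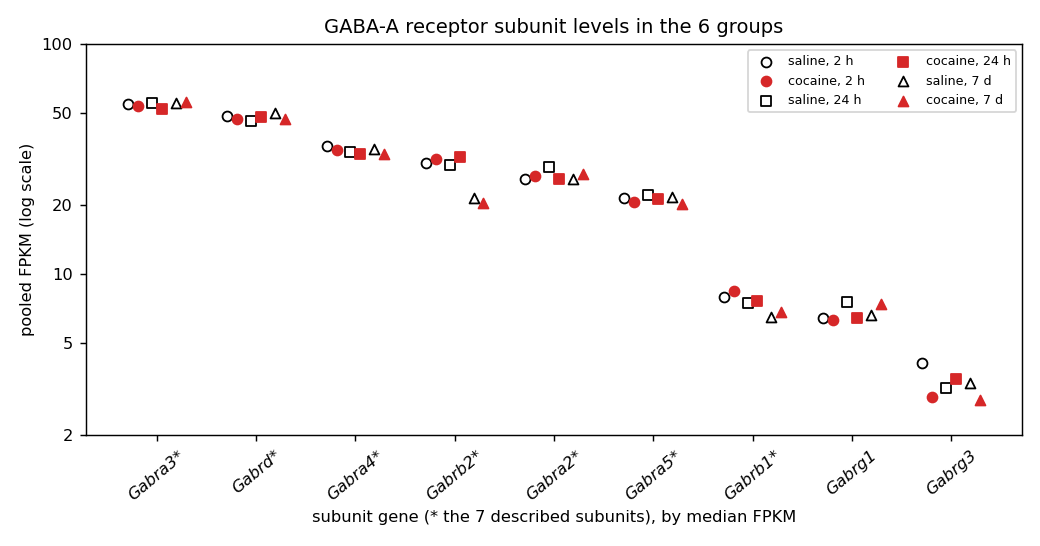
Pooled FPKM (log axis) of the 7 subunits and of Gabrg1 and Gabrg3, ordered by that median, with saline as open and cocaine as filled symbols and one symbol shape per time point. Each point is 1 group value with no error. Open and filled symbols lie close together for most genes, the annotated-strand locus of Gabrb2 is lower in the table of 7 d (21.5 and 20.4 FPKM) than in the other two, while the gene's sum over both loci is highest there (59.0 and 55.3 FPKM), and Gabrg3 is apart at 2 h.

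The shares of the 7 genes in their own summed FPKM were much alike in all groups. Gabra3 gave 23.6% to 26.5%, Gabrd 20.7% to 23.2%, Gabra4 15.1% to 16.1%, Gabra2 11.5% to 13.0% and Gabra5 9.24% to 10.0%, and Gabrb1 gave 3.0% to 3.79%. The share of Gabrb2 turned on its 2 loci. With the annotated-strand locus it lay between 13.3% and 14.6% at 2 h and 24 h, and at 9.94% in saline and 9.66% in cocaine at 7 d. With the sum over both loci it was 19.4% to 21.5% at 2 h and 24 h and highest at 7 d, with 23.2% in saline and 22.5% in cocaine.

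The question at each time point was whether cocaine changed subunit RNA relative to saline. Differences are given as the log2 of cocaine over saline, with 0.1 FPKM added to both, and a locus was counted when the 2 groups differed by at least 1.2-fold. None of the 7 subunits reached 1.2-fold at 2 h, 24 h or 7 d. The background among loci with a mean of at least 1 FPKM comprised 18.6% of 13804 at 2 h, 12.7% of 14264 at 24 h and 21.0% of 13927 at 7 d. Among loci of 5 to 60 FPKM, the range that holds these genes, it was 11.7%, 6.65% and 14.8%. With only 7 genes, a count of 0 at this size says little. By direction, 10.8% of all loci were higher and 7.82% lower by that size at 2 h, with 6.6% and 6.06% at 24 h and then 8.54% and 12.4% at 7 d. At the smaller size of 1.1-fold the 7 subunits gave 0, 1 and 0 past it, against 34.4%, 24.2% and 41.3% of loci of 5 to 60 FPKM. Gabrb2 was counted here by its annotated-strand locus. Its opposite-strand locus passed 1.1-fold at 2 h and 24 h (log2 ratios -0.21 and -0.23). At each time point 3 subunits had a higher and 4 a lower value in cocaine, beside 56.1%, 53.0% and 47.6% of all loci higher. The split depended on the locus chosen. Summed over both strands, Gabrb2 was lower at 2 h (-0.049) and 24 h (-0.0043), and Gabrb1 at 24 h (-0.013). Scaling the columns to their sums over all loci, which rest on very short loci, turned all 7 higher at 2 h and 24 h and all 7 lower at 7 d. Without that scaling the median log2 ratio of the 7 took the values -0.033 (2 h), -0.029 (24 h) and -0.064 (7 d), beside 0.023, 0.0087 and -0.011 over all loci. The smallest and largest ratio were -0.059 and 0.091 at 2 h, then -0.16 and 0.11 at 24 h, and lastly -0.097 and 0.075 at 7 d. All of these lay within the 5th to 95th percentile of loci of 5 to 60 FPKM, which was -0.24 to 0.32, -0.20 to 0.24 and -0.35 to 0.26. The opposite-strand locus of Gabrb2 lay below that range at 24 h.

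**Figure D2:**
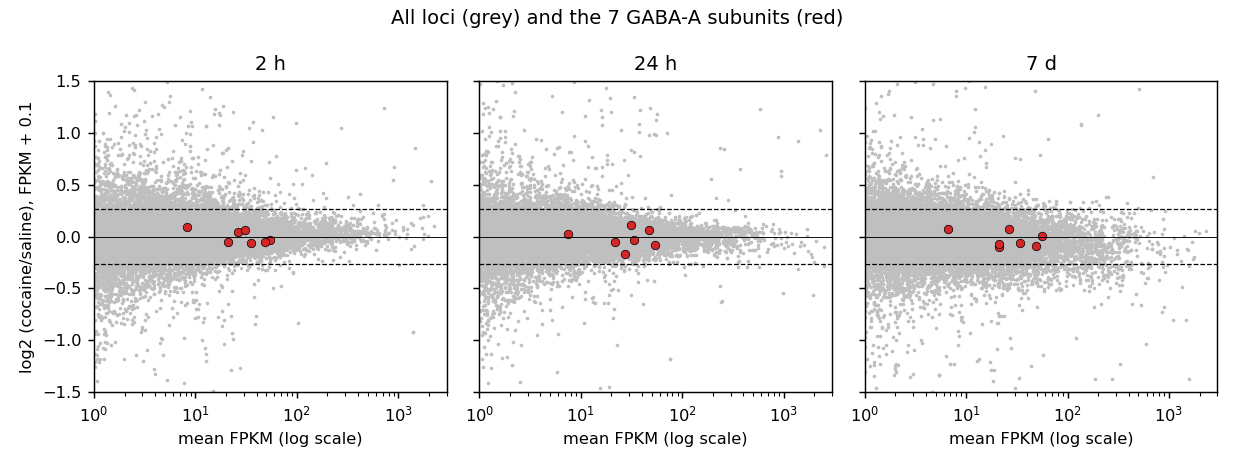
Log2 ratio of cocaine over saline (0.1 FPKM added) against mean FPKM (log axis) for loci with a mean of at least 1 FPKM (grey) and for the 7 subunits (red), at 2 h, 24 h and 7 d. Points beyond 1.5 and the most abundant loci are outside the axes. Dashed lines mark 1.2-fold, and every red point lies between them.

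Gabra2, a synaptic alpha subunit also found at the axon initial segment of pyramidal cells, had the largest single ratio of the 7. This counts Gabrb2 by its annotated-strand locus, since its opposite-strand locus was farther from 0 at 2 h and 24 h (-0.21 and -0.23). Gabra2 had 25.9 FPKM in saline and 26.6 FPKM in cocaine at 2 h, 29.1 and 25.9 FPKM at 24 h and 26.0 and 27.4 FPKM at 7 d. The saline value at 24 h was thus the highest of the 6, and the cocaine value beside it was close to both saline values of the other times. The log2 ratio was 0.039, -0.16 and 0.075. At 24 h, 82.4% of the loci of like level had a smaller difference, and Gabra2 was the one subunit past 1.1-fold at the loci counted. The ratio at 24 h lay 0.20 below that at 2 h and 0.24 below that at 7 d on the log2 scale, a difference between time points that could not be tested.

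Gabra3, the other synaptic alpha subunit here, was the most even of the 7. Its values were 54.8 FPKM in saline and 53.5 FPKM in cocaine at 2 h, 55.4 and 52.3 FPKM at 24 h, and 55.7 and 55.9 FPKM at 7 d. The highest value was 1.07 times the lowest, while genes of like level had a median of 1.21 (quartiles 1.14 and 1.32, 7147 genes) and only 2.99% of them had a smaller range. The log2 ratio was -0.033, -0.084 and 0.0052, and at 7 d 2.31% of like loci had a smaller difference.

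Gabra4, the alpha subunit that often pairs with delta, was at 35.9 FPKM in saline and 34.5 FPKM in cocaine at 2 h, 34.1 and 33.4 FPKM at 24 h, and 34.9 and 33.4 FPKM at 7 d. Cocaine was the lower of the pair at each time, but the cocaine value at 2 h lay above the saline value at 24 h, so the groups overlapped. The log2 ratios were -0.059, -0.029 and -0.064, and 14.3% of 12470 genes were likewise lower at all 3 times. Scaling to column sums, which rest on very short loci and shift every gene alike, turned them to 0.77 and 0.34 at 2 h and 24 h.

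Gabra5, the alpha subunit of extrasynaptic receptors that is best known from hippocampus, was at 21.4 FPKM in saline and 20.6 FPKM in cocaine at 2 h, 22.1 and 21.3 FPKM at 24 h, and 21.6 and 20.2 FPKM at 7 d. Every cocaine value was below every saline value, which no other of the 7 showed, although the nearest pair (21.3 and 21.4 FPKM) almost met. The locus itself differed between tables: it ended at base 57510027 at 2 h and 24 h and at base 57590403 at 7 d. Of 12470 genes with at least 1 FPKM in each table, 4.55% had all cocaine values below all saline values. None of the 7 had all cocaine values above all saline values, as 3.48% of genes did. The log2 ratios were -0.055, -0.053 and -0.097, each small against the spread of like loci. They turned to 0.77 and 0.32 at 2 h and 24 h under scaling to column sums, which shifts every gene alike and rests on very short loci.

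Gabrb1, a beta subunit of low cortical level, was at 7.92 FPKM in saline and 8.44 FPKM in cocaine at 2 h, 7.51 and 7.63 FPKM at 24 h, and 6.49 and 6.83 FPKM at 7 d. Cocaine was the higher of the pair at all 3 times, as in 19.2% of genes. However, the 24 h ratio of 0.022 became -0.0017 under upper-quartile scaling and -0.013 in the sum over both strands. The 7 d ratio of 0.073 became -1.40 under scaling to column sums, which shifts every gene alike and rests on very short loci. The difference between tables was larger than that between groups: both values at 7 d lay below all 4 earlier ones. At 2 h the log2 ratio was 0.091. A second locus with the gene's name, numbered with the opposite strand, stood below 1 FPKM in every group.

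Gabrd, the delta subunit of tonic inhibition, was at 48.8 FPKM in saline and 47.2 FPKM in cocaine at 2 h, 46.4 and 48.3 FPKM at 24 h, and 50.2 and 47.1 FPKM at 7 d. The sign of the log2 ratio changed with time (-0.048, 0.059 and -0.092), and the cocaine values lay inside the range of the saline values. Its range over groups, 1.08-fold, was smaller than in all but 5.62% of genes of like level.

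**Figure D3:**
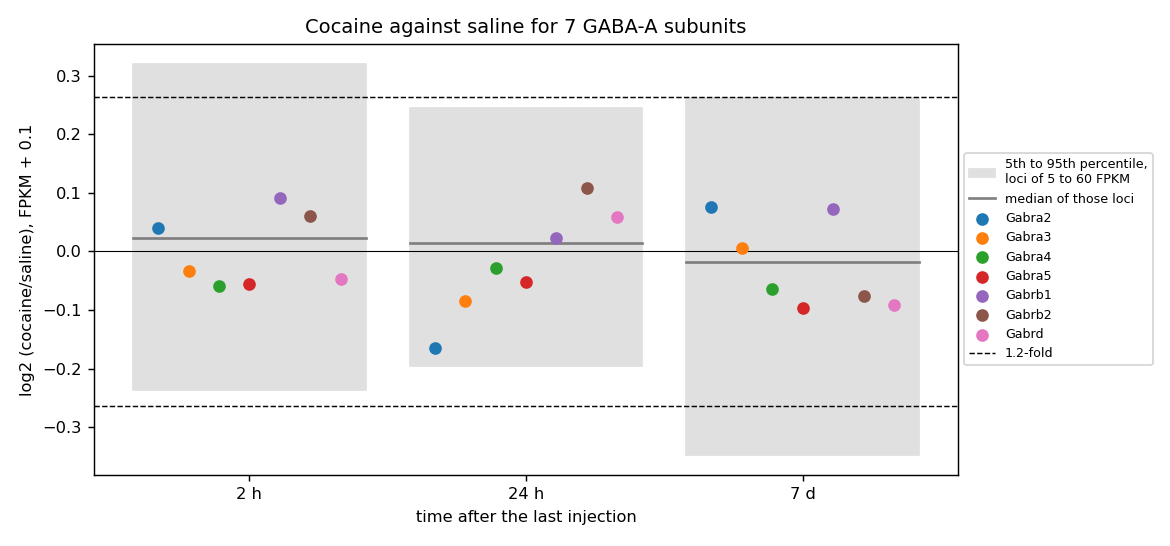
Log2 ratio of cocaine over saline (0.1 FPKM added) for the 7 subunits at each time after the last injection, with the 5th to 95th percentile (grey band) and median (grey line) of loci of 5 to 60 FPKM and 1.2-fold as dashed lines. All 21 points lie inside the band, with Gabra2 at 24 h (-0.16) the farthest from 0. Gabrb2 is shown by its annotated-strand locus.

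Gabrb2, a beta subunit of synaptic receptors, was listed at 2 loci with the same outer coordinates. The tables number loci within a chromosome by strand, a numbering that matched the RefSeq strand at 98.9% to 99.2% of loci where the strand is known, and one of the 2 carried a number of the annotated strand, the other a number of the opposite strand. The annotated strand's locus was at 30.5 FPKM in saline and 31.8 FPKM in cocaine at 2 h, 29.9 and 32.2 FPKM at 24 h, and 21.5 and 20.4 FPKM at 7 d, with log2 ratios of 0.060, 0.11 and -0.075. The opposite one gave 22.9 and 19.9 FPKM, 17.0 and 14.5 FPKM, and 37.5 and 34.9 FPKM, with ratios of -0.21, -0.23 and -0.10. The low values of the first at 7 d therefore stood beside the high values of the second. The second held 43.0% (saline) and 38.5% (cocaine) of the summed FPKM at 2 h, then 36.3% and 31.0% at 24 h, and by 7 d 63.6% and 63.1%. In sum the gene was at 53.4 FPKM in saline and 51.6 FPKM in cocaine at 2 h, 46.9 and 46.7 FPKM at 24 h, and 59.0 and 55.3 FPKM at 7 d. The sum gave ratios of -0.049, -0.0043 and -0.093, so the higher value in cocaine at 2 h and 24 h held for the first locus alone. How reads were divided between the loci was not tested, and the RNA was prepared with a kit that keeps no strand.

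Such a split was rare. Of 5970 to 6091 genes with an own locus of at least 5 FPKM, 1.51%, 1.77% and 1.89% had a locus on the opposite strand at 2 h, 24 h and 7 d, and its median share was 4.10%, 4.78% and 5.24%. Gabrb2 was 1 of 10, 11 and 17 genes in which it reached 30%. The range of its own locus over groups, 1.58-fold, exceeded that of 93.6% of genes of like level. At 7 d log2 ratios also followed transcript length, with a median of -0.24 in the shortest and 0.14 in the longest of 20 length groups. Gabrb2 has the longest transcript of the 7 (7665 nt), and its ratio there lay 0.20 below the median of genes of like length. For the other 6 this distance at 7 d was between -0.10 and 0.11.

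**Figure D4:**
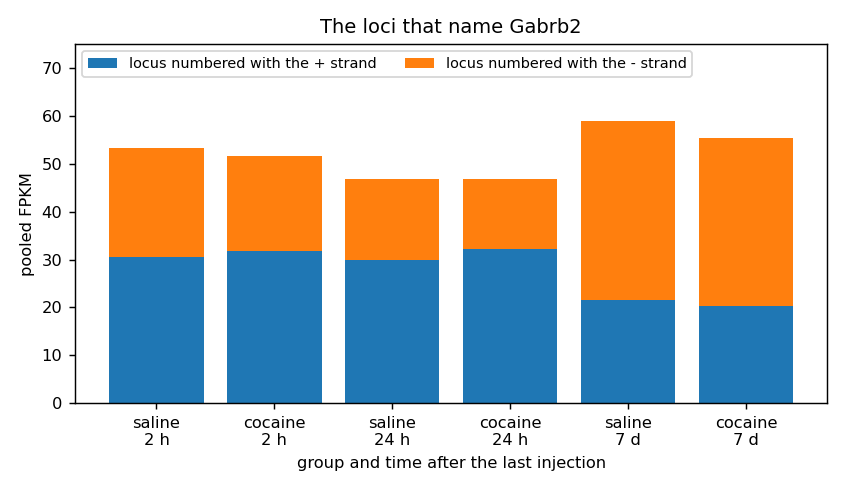
Pooled FPKM of the 2 loci that name Gabrb2, stacked, by group and time; bars start at 0 and carry no error. The locus of the opposite strand makes up the larger share at 7 d (63.6% and 63.1%) and the smaller one at 2 h and 24 h.

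In the mouse genome (RefSeq, build GRCm38.p6) Gabra2 (chr5:70958392-71095849), Gabra4 (chr5:71569734-71658308) and Gabrb1 (chr5:71657921-72149572) lie in one cluster. Gabra3 is at chrX:72432676-72656919, Gabra5 at chr7:57407669-57591016, Gabrb2 at chr11:42419515-42632591 and Gabrd at chr4:155384979-155398098. Gabra4 and Gabrb1 start 387 bases apart on opposite strands and their spans share 388 bases at the 5′ ends, where reads without strand cannot be told apart. The tables gave both genes the same outer coordinates. Gabrd shares 6000 with Cfap74 and Gabrb2 shares 1701 with the noncoding RNA gene Gm34591. The divergent pair had opposite signs, with Gabra4 lower and Gabrb1 higher in cocaine at each time, by no more than 0.091 on the log2 scale. At 24 h Gabrb1 turned lower under upper-quartile scaling (-0.0017) and in the sum over both strands (-0.013). It also did so less the median of loci of like FPKM (-0.0037) or of genes of like length (-0.00028). Scaling to column sums moved both genes the same way.

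In all, 10 promoter windows (250 bases before to 50 after a transcript start, RefSeq) were on hand for 6 of the 7 genes, some with several starts. They were searched on both strands for 5 motifs: the AP-1 site TGANTCA (in 7.81% of 32851 windows), the CRE core TGACG (20.8%), the EGR site GCGNGGGCG (5.55%), the GC box GGGCGG (35.7%) and the TATA box TATAAA (13.6%). AP-1 and EGR sites are bound by products of activity-induced genes. Below is 1 window each of the divergent pair, of Gabra2 with the largest ratio at the loci counted, of Gabra5 with no overlap between groups and of Gabrb2 with 2 loci. They are printed 5′ to 3′ on the gene's strand with motif matches in capitals. For Gabrb1 and Gabrb2, which have several windows, only the window with motif matches is printed.
Gabra4, minus strand, chr5:71658259-71658558: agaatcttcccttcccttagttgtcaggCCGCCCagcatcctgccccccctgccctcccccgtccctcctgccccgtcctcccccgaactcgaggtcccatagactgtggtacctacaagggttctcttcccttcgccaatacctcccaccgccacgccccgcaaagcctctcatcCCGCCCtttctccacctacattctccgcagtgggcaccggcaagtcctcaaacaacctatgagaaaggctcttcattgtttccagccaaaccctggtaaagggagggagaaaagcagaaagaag
Gabrb1, plus strand, chr5:71657671-71657970: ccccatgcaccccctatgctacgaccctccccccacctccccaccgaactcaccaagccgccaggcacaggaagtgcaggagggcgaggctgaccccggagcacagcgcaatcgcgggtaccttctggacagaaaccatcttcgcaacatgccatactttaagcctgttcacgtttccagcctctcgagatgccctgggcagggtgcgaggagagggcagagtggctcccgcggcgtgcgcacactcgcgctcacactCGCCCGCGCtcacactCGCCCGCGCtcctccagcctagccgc
Gabra2, minus strand, chr5:71095800-71096099: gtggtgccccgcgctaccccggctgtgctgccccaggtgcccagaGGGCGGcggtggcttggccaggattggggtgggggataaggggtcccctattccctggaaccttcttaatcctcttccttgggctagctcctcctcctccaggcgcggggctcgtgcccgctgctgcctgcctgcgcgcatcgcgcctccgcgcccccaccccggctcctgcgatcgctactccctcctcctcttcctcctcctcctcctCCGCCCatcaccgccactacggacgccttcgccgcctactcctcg
Gabra5, minus strand, chr7:57510010-57510309: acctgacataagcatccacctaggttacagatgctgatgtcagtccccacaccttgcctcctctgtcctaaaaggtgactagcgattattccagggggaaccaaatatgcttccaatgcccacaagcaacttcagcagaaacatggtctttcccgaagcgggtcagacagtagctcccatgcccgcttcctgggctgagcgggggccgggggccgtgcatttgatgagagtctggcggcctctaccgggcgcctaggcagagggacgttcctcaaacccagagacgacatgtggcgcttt
Gabrb2, plus strand, chr11:42420190-42420489: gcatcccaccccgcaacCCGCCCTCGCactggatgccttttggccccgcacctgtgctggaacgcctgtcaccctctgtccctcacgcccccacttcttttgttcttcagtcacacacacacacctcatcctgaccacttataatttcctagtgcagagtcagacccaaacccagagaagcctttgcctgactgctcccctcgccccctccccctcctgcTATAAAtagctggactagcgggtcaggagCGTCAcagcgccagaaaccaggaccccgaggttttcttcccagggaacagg
Gabra4 held GC boxes at -222 and -74 from the start and Gabra2 at -205 and 6. Gabrb1 held the EGR site at 9 and 25, inside a repeated stretch. Gabrb2 held a GC box at -233 that overlaps an EGR site at -232, a TATA box at -30 and a CRE core at -1. The other windows of Gabrb1 and Gabrb2, at further starts, held none of the 5 motifs. The overlapping windows of Gabra3, not printed, held the same TATA box, at -235 and -123 from their starts. None of the 5 motifs was in the Gabra5 window. That window is at a start (57510059) inside the gene's span and not at its 5′ end (57591016), which was not searched. No window of the 6 genes held the AP-1 site. These are matches of letters, and binding was not measured.

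Across the 6 groups the subunits did not move as one. Of 21 pairs of the 7 genes, 12 had a positive and 9 a negative Pearson r over the 6 group values, with a median of 0.082 (a description over 6 pooled values that share tables). The lowest was that of Gabra2 and Gabrd (-0.80). The highest was that of Gabrb1 and the annotated-strand locus of Gabrb2 (0.89), and it became -0.57 with Gabrb2 summed over both loci. The genes whose log2 FPKM followed the mean of the 7 most closely over these groups were Il17d, Gm11175, Dgkh, 1700008O03Rik and Fam135b, with r from 0.988 to 0.990 among 12463 genes. The mean itself spanned only 0.13 on the log2 scale. This list followed the locus chosen for Gabrb2: with its sum the mean spanned 0.062, the r of these 5 genes was 0.062 to 0.17, and 0 of them were among the 5 closest.

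With 1 locus per gene, the 9 other subunit genes gave 1 value past 1.2-fold. Gabrg3 was at 4.11 FPKM in saline and 2.94 FPKM in cocaine at 2 h (log2 ratio -0.47), where 7.82% of all loci were lower by at least 1.2-fold. The main locus of Gabrg1 stayed within 1.2-fold at each time. A short second locus with its name, listed at 24 h, was at 1.23 FPKM in saline and 0.930 FPKM in cocaine (log2 ratio -0.37). At 24 h 6.06% of all loci were lower by at least 1.2-fold. The remaining 7 genes were below the level at which loci were counted.

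Genes that place the receptors or set their driving force gave few values past 1.2-fold. Of 18 genes for anchoring and trafficking, which include gephyrin (Gphn) and neuroligin 2, 1 passed 1.2-fold: Trak1, an adaptor that couples cargo to kinesin, was at 36.8 FPKM in saline and 48.5 FPKM in cocaine at 2 h (log2 ratio 0.40). At 2 h 10.8% of all loci were higher by that size. The list's median ratio was 0.0082, 0.028 and 0.078 at 2 h, 24 h and 7 d. None of 7 chloride transport genes and none of the 4 measured GABA-B receptor genes passed it at any time, beside 18.6%, 12.7% and 21.0% of all loci, and with so few genes a count of 0 says little.

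Of 8 genes for GABA synthesis, transport and breakdown, none passed 1.2-fold at 2 h or 24 h and 2 were higher at 7 d, where 8.54% of all loci were. The GABA transporter gene Slc6a13 was at 9.02 FPKM in saline and 11.5 FPKM in cocaine (log2 ratio 0.35), and Slc6a11, its relative in astrocytes, at 28.9 and 36.1 FPKM (0.32). Gad1 and Gad2, the GABA-making enzymes, had ratios of 0.056 and 0.055. Beside these values, 3 of 6 astrocyte markers and 4 of 6 vascular markers were higher by 1.2-fold at 7 d, and their part in the transporter values was not tested. The 7 receptor subunits at 7 d stayed between -0.097 and 0.075.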

How the data were processed

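RNA of the prefrontal cortex was sequenced as poly(A) libraries. Per the labels, the submitters' processing notes name CASAVA 1.8.2, Trimmomatic 0.32, TopHat2 2.0.12, Cufflinks 2.2.1 and Cuffdiff with GRCm38 (mm10), while the methods of the study name another build and trimming tool. The authors deposited 3 tables of FPKM, one per time point, with 1 value per group over its 2 libraries, and columns of their own comparisons (fold changes, test statistics, p- and q-values), which were not used. Column names are short, and their reading as saline and cocaine follows the study's description of these tables. Where a gene had several loci, the annotated strand, then the longest span, was taken. Values were compared within a table as log2((cocaine + 0.1)/(saline + 0.1)), over loci with a mean of at least 1 FPKM, at 1.2-fold. With pooled values no test, SD or p is possible, and depth is unknown. Transcript lengths were matched by symbol for 84.9% to 85.7% of genes. Members and gene lists were chosen with earlier results of these data known. Genes named outside the 7 are 9 other subunits (some are not reported here), the largest rise and fall past 1.2-fold in a list, and the 5 genes of most similar course, except Slc6a11, Gad1, Gad2, Gphn, Slc17a7, Camk2a and overlapping genes, which were chosen after their values were seen. The steps were tested on simulated data and run with pandas 2.3.3 under Python 3.11.15 (matplotlib 3.10.9 for figures). Alternatives were other pseudocounts, filters, folds and scalings, and, chosen after seeing the data, a length correction, sums over both strands and upper-quartile scaling.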

Additional observations from a re-analysis of the deposited data

How the results depend on the processing

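Pooled values, 1 per group, set the limits: no paired analysis was possible because the deposited values pool the 2 libraries of each group, and for the same reason no library could be left out. The count of subunits past 1.2-fold stayed at 0 under the other alternatives tried, except these. With a fold of 1.1 it was 1 at 24 h (Gabra2). Scaling each column to the same sum over all loci gave counts of 7, 6 and 7 at 2 h, 24 h and 7 d, median log2 ratios of 0.80, 0.34 and -1.57, and median differences between times of -0.46 (24 h less 2 h), -2.34 (7 d less 2 h) and -1.91 (7 d less 24 h). In those sums 99.64% to 99.99% came from 3533 to 3537 loci shorter than 300 bases, and sums over the longer loci still differed up to 14550000 against 1212000 at 24 h, so they follow a few loci. Without that scaling the median ratio ran from -0.067 to -0.033 at 2 h, -0.059 to -0.028 at 24 h and -0.065 to -0.0077 at 7 d. The sign held in 17 of 21 single ratios. It changed for Gabrb2 in the sum over both strands at 2 h and 24 h and, at 2 h, also after the length correction (-0.017), for Gabrb1 at 24 h (lowest -0.013) and for Gabra3 at 7 d (-0.024 to 0.062).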
